A study of Mus musculus with 8 samples.

Results

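The 41 genes described here encode proteins of mitosis, and they were followed in the transcriptomes of CD4+ T cells sorted from the livers of neonatal mice. They were taken by symbol from a table of counts for 52997 gene symbols. All 41 of 41 had at least 20 counts summed over the 8 libraries and all 41 passed the filter on low counts, which left 11490 genes to test. They were arranged by role into 8 sets, from the cyclins and kinases that start mitosis to the machinery that separates the chromosomes.

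The study compared 4 groups of 2 libraries each, made from PD-1+ cells of 10-day-old mice, PD-1+ cells of 5-day-old mice, PD-1- cells of 10-day-old mice and PD-1- cells of 5-day-old mice. PD-1 is an inhibitory receptor, encoded by Pdcd1, that T cells display after antigen receptor signalling. Every group came from C57BL/6 mice that lack Aire and carry a GFP reporter of Foxp3 (strain "Aire- Foxp3 GFP+ (C57/Bl6)"). There is no Aire-sufficient group, and the loss of Aire is common to all 8 libraries. Aire is the thymic regulator that lets medullary epithelial cells display tissue-restricted antigens to developing T cells, and without it more self-reactive T cells leave the thymus. Live CD45+ TCRb+ CD4+ cells without Foxp3 reporter signal were separated by surface PD-1, and each library was made from 1000 of them after 2 rounds of sorting. The sources used here do not give how many mice stand behind a library, so p-values measure only the spread between these samples, which may be technical.

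A T cell that divides copies its DNA, condenses its chromosomes, attaches them to a spindle, separates the copies and then divides its cytoplasm. Cyclins A and B with the kinase CDK1 drive the entry, and aurora and polo-like kinases build the spindle. Kinetochores and the spindle checkpoint hold the chromosomes until all are attached. The anaphase-promoting complex then destroys securin and the cyclins. The transcripts of most of these proteins are made late in the cell cycle, in G2 and M phase, and are repressed in resting cells by the DREAM complex. In bulk RNA, fewer cells of a type and less RNA per cell cannot be told apart, so a level given here is a mean over cycling and resting cells.

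The libraries held 2215852 to 2843311 counts in PD-1+ cells and 1473216 to 3019551 counts in PD-1- cells, of which the 41 mitosis genes took 0.513 to 1.00% in PD-1+ and 0.431 to 0.816% in PD-1- libraries. Levels are given as CPM (counts scaled to a common library size), normalised by the trimmed mean of M values over the tested genes. Pdcd1 stood at 269 to 696 CPM in PD-1+ and 0.568 to 1.95 CPM in PD-1- libraries. Foxp3 had 0 to 2 counts in the PD-1+ and 10 to 32 counts in the PD-1- libraries. The 10 T cell markers summed to 8662 and 7475 CPM in 10-day and 5557 and 5971 CPM in 5-day PD-1+ cells. In PD-1- cells they summed to 6411 and 6214 CPM at 10 days and 5747 and 6434 CPM at 5 days. Cd4, one of them, was at 1524 and 1336 CPM in 10-day and 685 and 754 CPM in 5-day PD-1+ cells. In PD-1- cells Cd4 was at 935 and 716 CPM at 10 days and 711 and 696 CPM at 5 days. Neonatal liver also holds dividing blood precursors. The globin genes Hba-a1, Hba-a2, Hbb-bs and Hbb-bt with Klf1, Alas2 and Epor together had 5 to 10 counts in the PD-1+ and 4 to 14 counts in the PD-1- libraries. Gata1, which T cells can also transcribe, had 0 to 6 counts in the PD-1+ and 8 to 80 counts in the PD-1- libraries. The globin genes were thus near 0, and every PD-1+ library had fewer Gata1 counts than any PD-1- library. Tfrc, the transferrin receptor, which dividing T cells also display, had 344 to 410 counts in the PD-1+ and 197 to 418 counts in the PD-1- libraries, not scaled to depth. Tfrc held most counts of the 10 erythroid markers. Scaled, these summed to 128 and 144 CPM in 10-day and 212 and 201 CPM in 5-day PD-1+ cells. In PD-1- cells they summed to 152 and 139 CPM at 10 days and 128 and 136 CPM at 5 days. Among blood progenitor markers, Cebpa was at 0 in all 8 libraries. Kit, Cd34, Flt3 and Cebpa together had 2 to 7 counts in the PD-1+ and 6 to 15 counts in the PD-1- libraries. Ly6a, the progenitor marker Sca-1 that activated T cells also display, ran the other way, with 1340 to 2288 counts in the PD-1+ and 44 to 376 counts in the PD-1- libraries. The 6 hepatocyte markers summed to 26.3 to 78.2 CPM in PD-1+ and 10.2 to 19.8 CPM in PD-1- libraries. The part of these other cell types in the results was not tested. Both 5-day libraries numbered 3 held Y-linked counts (601 in PD-1+ and 672 in PD-1- cells) and the other 6 libraries held 0, so sex is partly mixed with age.

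Many promoters of late cell cycle genes carry a cell cycle genes homology region, TTTGAA, together with CCAAT boxes upstream of it. In human and mouse cells the pair is known as a mark of genes that the MuvB core complex and NF-Y bind. Promoters from 250 bases before to 50 bases after the start were found in RefSeq (GRCm38.p6) for 35 of the 41 genes; Ccna2, Tpx2, Aurkb, Spc24, Kif20a and Smc4 had no entry. TTTGAA stood on either strand in 27 of the 35 (77.1%), against 4 of 27 DNA replication genes (14.8%) and 20.2% of 27025 genes in the table. For 3 of the 35, Kif2c, Kif4 and Pttg1, the RefSeq window lay wholly inside the gene as GENCODE M21 draws it, and without these TTTGAA stood in 25 of 32. CCAAT stood on either strand in 77.1% of the mitosis genes, 66.7% of the replication genes and 41.1% of all genes, and both motifs in 68.6%, 11.1% and 7.97% of them. The 149 bases from 120 before the start to 29 after it are printed for 7 genes that the results below return to, 6 with TTTGAA and 1 with neither motif in this stretch, 5′ to 3′ on the gene's strand. Capitals mark TTTGAA or its reverse complement TTCAAA, and CCAAT or its reverse complement ATTGG.
Cdk1, chr10:69352884-69353032, minus strand: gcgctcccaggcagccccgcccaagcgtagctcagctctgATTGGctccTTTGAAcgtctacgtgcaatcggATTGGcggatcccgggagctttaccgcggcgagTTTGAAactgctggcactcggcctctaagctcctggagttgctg
Top2a, chr11:99024161-99024309, minus strand: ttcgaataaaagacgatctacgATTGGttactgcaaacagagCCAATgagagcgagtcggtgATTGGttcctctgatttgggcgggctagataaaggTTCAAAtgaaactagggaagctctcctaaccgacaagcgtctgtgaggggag
Ube2c, chr2:164769809-164769957, plus strand: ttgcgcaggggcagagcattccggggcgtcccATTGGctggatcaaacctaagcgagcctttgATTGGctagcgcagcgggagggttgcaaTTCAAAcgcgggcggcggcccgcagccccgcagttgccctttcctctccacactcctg
Cdc20, chr4:118437315-118437463, minus strand: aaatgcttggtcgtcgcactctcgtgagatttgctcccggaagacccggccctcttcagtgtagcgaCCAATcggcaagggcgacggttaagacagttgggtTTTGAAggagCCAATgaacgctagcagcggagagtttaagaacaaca
Kif11, chr19:37376262-37376410, plus strand: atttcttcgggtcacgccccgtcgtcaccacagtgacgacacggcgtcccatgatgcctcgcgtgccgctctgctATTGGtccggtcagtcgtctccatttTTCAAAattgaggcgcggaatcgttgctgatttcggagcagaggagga
Ccnb2, chr9:70421526-70421674, minus strand: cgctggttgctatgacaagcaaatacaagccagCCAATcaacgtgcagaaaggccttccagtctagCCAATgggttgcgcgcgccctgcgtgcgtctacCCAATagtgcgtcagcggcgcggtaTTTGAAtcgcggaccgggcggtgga
Nusap1, chr2:119618178-119618326, plus strand: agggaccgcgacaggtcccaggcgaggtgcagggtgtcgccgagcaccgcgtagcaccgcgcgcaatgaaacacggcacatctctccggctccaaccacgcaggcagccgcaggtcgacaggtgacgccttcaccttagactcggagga
The printed Cdk1 stretch holds TTTGAA at 2 places and those of Top2a, Ube2c, Cdc20, Kif11 and Ccnb2 at 1 each, next to 1 to 3 CCAAT boxes. A match is a run of letters and no measure of binding. The median log2 fold change of PD-1+ over PD-1- cells was 0.71 for the 27 genes with TTTGAA, 19 of them called higher, and 0.89 for the 8 genes without it, 7 of them called higher.

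The summed level of the mitosis genes was highest in 5-day PD-1+ cells. Summed over the 41 genes, the level was 5196 and 6359 CPM in 10-day and 10463 and 11299 CPM in 5-day PD-1+ cells, against 3952 and 5592 CPM in 10-day and 4792 and 7910 CPM in 5-day PD-1- cells. The 5-day PD-1+ libraries stood apart, and at 10 days the lower PD-1+ library lay below the higher PD-1- library, which carries another replicate number. Between 10-day libraries of the same number, the PD-1+ sum was the higher (5196 against 3952 and 6359 against 5592 CPM). There, 37 of the 41 genes were higher in the PD-1+ library numbered 1 and 38 in that numbered 2. No such count was made over all tested genes. Remarks below on overlap between groups disregard these numbers. Smc4 ran against the rest and made up 8.16 and 6.56% of the counts of the 41 genes in 10-day and 5.10 and 5.02% in 5-day PD-1+ cells, against 28.2 and 21.3% in 10-day and 18.7 and 14.8% in 5-day PD-1- cells. Without Smc4, a choice made after its values were seen, the sums were 4772 and 5942 CPM in 10-day and 9930 and 10732 CPM in 5-day PD-1+ cells, against 2838 and 4399 CPM in 10-day and 3895 and 6741 CPM in 5-day PD-1- cells. The groups then did not overlap at either age, although the highest PD-1- library, at 5 days, lay above both 10-day PD-1+ libraries.

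The 33 DNA replication genes, which act in S phase, separated the populations further. They summed to 6178 and 5417 CPM in 10-day and 8889 and 8325 CPM in 5-day PD-1+ cells, against 2095 and 2048 CPM in 10-day and 2304 and 2666 CPM in 5-day PD-1- cells. Every PD-1+ library lay above every PD-1- library. The ratio of the summed CPM of the 40 mitosis genes without Smc4 to that of the replication genes was lower in PD-1+ cells, at 0.772 and 1.10 at 10 days and 1.12 and 1.29 at 5 days, against 1.35 and 2.15 at 10 days and 1.69 and 2.53 at 5 days in PD-1- cells.

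**Figure D1:**
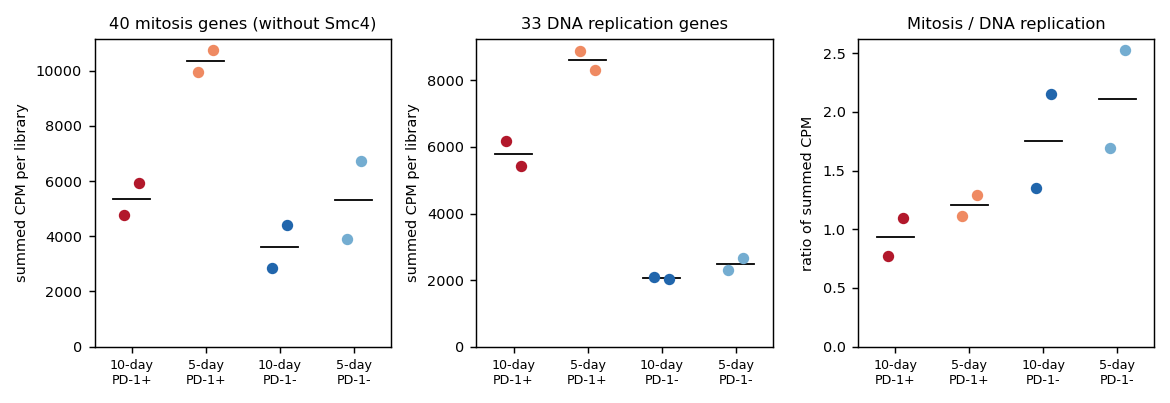
Summed CPM of 40 mitosis genes (all but Smc4), summed CPM of 33 DNA replication genes, and the ratio of these sums, with 1 point per library and a line at the mean of the 2 libraries of a group. The replication sums of PD-1+ cells (5417 to 8889 CPM) lie apart from those of PD-1- cells (2048 to 2666 CPM), the mitosis sums overlap across ages, and the ratio is 0.772 to 1.29 in PD-1+ and 1.35 to 2.53 in PD-1- libraries.

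The mitosis genes moved together from library to library also within a group. In 10-day PD-1+ cells, 40 of the 41 were higher in replicate 2 than in replicate 1, with a median ratio of 1.21, and in 5-day PD-1+ cells 32 of the 41 were higher in replicate 3 than in replicate 2, with a median ratio of 1.07. In PD-1- cells the gap was wider, with 40 of 41 higher in replicate 2 than in replicate 1 at 10 days (median ratio 1.56) and 41 of 41 higher in replicate 3 than in replicate 2 at 5 days (median ratio 1.66). These higher PD-1- libraries were also the shallowest of the 8, with 1473216 counts at 10 days and 1706991 counts at 5 days. In PD-1+ cells the higher libraries carried the same numbers as in PD-1- cells. PD-1+ depths for replicates 1 and 2 at 10 days were 2843311 and 2791009 counts. For replicates 2 and 3 at 5 days they were 2215852 and 2365447 counts. The 5-day libraries numbered 3 were those with Y-linked counts. The part of depth, sex or replicate number in these gaps was not tested. Because the genes shared this spread, their calls are not independent of each other.

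**Figure D2:**
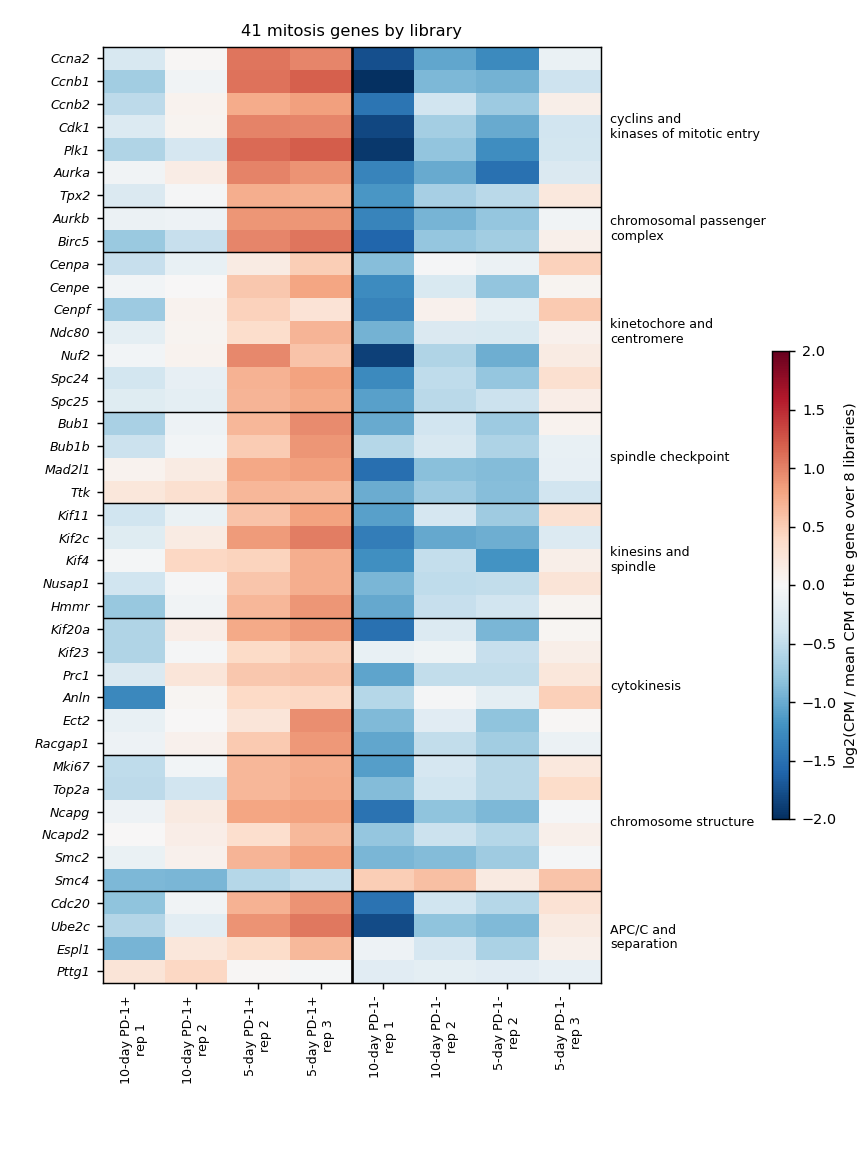
Level of each of the 41 mitosis genes in each library as log2 of its CPM over its mean CPM in the 8 libraries, arranged by role, with the 4 PD-1+ libraries left of the line and the 4 PD-1- libraries right of it. The 5-day PD-1+ libraries are the highest for most genes, the 10-day PD-1- replicate 1 library is the lowest for most, Smc4 runs the other way and Pttg1 varies little.

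Taken over both ages, 31 of the 41 mitosis genes were higher in PD-1+ cells relative to PD-1- cells, Smc4 was lower, and 9 did not pass the test. The test was edgeR's quasi-likelihood test on all 8 libraries with age as a term, called at a Benjamini-Hochberg adjusted p below 0.05 over 11490 genes. Among all tested genes 21.9% were called higher and 19.6% lower. The median log2 fold change of PD-1+ over PD-1- cells was 0.76 over the 41 genes and -0.01 over all tested genes. Estimates were at least 2-fold higher for 13 of the 41 genes, against 1552 of the 11490 tested genes. Leaving out 1 library at a time gave 24 to 35 called genes, and 23 of the 32 calls were kept in all 8 of these fits. The 9 calls that were lost in at least 1 fit were those of Ccnb2, Ndc80, Spc24, Bub1, Bub1b, Hmmr, Kif20a, Ect2 and Mki67, with edgeR adjusted p between 0.052 and 0.12 there. Losses came from leaving out replicate 1 of the 10-day PD-1- libraries, replicate 2 of the 10-day PD-1+ or 5-day PD-1- libraries, or either 5-day PD-1+ library. The Kif20a call was also lost without replicate 3 of the 5-day PD-1- libraries.

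All 7 genes of mitotic entry were higher in PD-1+ cells over both ages, the median log2 fold change of the set being 1.41. Ccna2 encodes cyclin A2, which carries cells through S phase and into mitosis (chr3:36564865-36572150 of GRCm38). It was at 297 and 381 CPM in 10-day and 787 and 732 CPM in 5-day PD-1+ cells, against 110.1 and 181 CPM in 10-day and 155 and 340.1 CPM in 5-day PD-1- cells. PD-1+ lay above PD-1- libraries at each age, and the log2 fold change was 1.43 ± 0.25 over both ages (edgeR adjusted p = 0.0013). Cdk1, the kinase that cyclins A and B activate, was at 152 and 191 CPM in 10-day and 366 and 365 CPM in 5-day PD-1+ cells, against 52.5 and 115 CPM in 10-day and 91.4 and 142 CPM in 5-day PD-1- cells. All 4 PD-1+ libraries lay above all 4 PD-1- libraries, with a log2 fold change of 1.37 ± 0.25 (edgeR adjusted p = 0.0016). Ccnb2, one of the B-type cyclins, was at 155 and 235 CPM in 10-day and 373 and 396 CPM in 5-day PD-1+ cells, against 81.6 and 172 CPM in 10-day and 135 and 241 CPM in 5-day PD-1- cells. Its groups overlapped at 10 days and not at 5 days, and its log2 fold change was 0.84 ± 0.27 (edgeR adjusted p = 0.031, and above 0.05 without any 1 of 5 libraries). Its paralog Ccnb1, the main B-type cyclin of mitosis, ranged over 58.4 to 216 CPM in the PD-1+ and 20.7 to 71.5 CPM in the PD-1- libraries, a log2 fold change of 1.48 ± 0.28 (edgeR adjusted p = 0.0017).

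The spindle kinases Aurka and Plk1 and the aurora activator Tpx2 complete the set. Aurka encodes aurora A, the kinase of the spindle poles (chr2:172356190-172370535), and was at 57.3 and 66.8 CPM in 10-day and 119.9 and 112 CPM in 5-day PD-1+ cells, against 24.0 and 29.9 CPM in 10-day and 21.4 and 49.4 CPM in 5-day PD-1- cells. All PD-1+ libraries lay above all PD-1- libraries, and its log2 fold change of 1.49 ± 0.24 was the highest of the 41 over both ages (edgeR adjusted p = 1.9e-04). Tpx2, which activates aurora A on the spindle, was at 105 and 126 CPM in 10-day and 212 and 210.1 CPM in 5-day PD-1+ cells, against 57.0 and 80.7 CPM in 10-day and 88.5 and 149 CPM in 5-day PD-1- cells. It separated the populations at each age and had a log2 fold change of 0.80 ± 0.17 (edgeR adjusted p = 0.0020). Plk1 encodes polo-like kinase 1, which acts from entry to cytokinesis (chr7:122159439-122169873), and was at 70.2 and 84.3 CPM in 10-day and 234 and 247 CPM in 5-day PD-1+ cells, against 27.9 and 61.8 CPM in 10-day and 45.0 and 82.3 CPM in 5-day PD-1- cells. Its 5-day PD-1+ libraries stood well above the other 6, and its log2 fold change was 0.84 ± 0.38 at 10 days and 1.94 ± 0.37 at 5 days, the highest of the 41 at 5 days (edgeR adjusted p = 0.14 and 0.0041).

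Both members of the chromosomal passenger complex, which corrects faulty attachments and later directs cytokinesis, were higher in PD-1+ cells over both ages. Its kinase Aurkb, aurora B (chr11:69045647-69051664), was at 112 and 113 CPM in 10-day and 223 and 222 CPM in 5-day PD-1+ cells, against 48.6 and 63.7 CPM in 10-day and 71.3 and 116 CPM in 5-day PD-1- cells. PD-1+ lay above PD-1- libraries at each age, with a log2 fold change of 1.14 ± 0.17 (edgeR adjusted p = 7.8e-05). Birc5, survivin, the subunit that brings the complex to the centromere, was at 90.1 and 109 CPM in 10-day and 294 and 315 CPM in 5-day PD-1+ cells, against 49.9 and 87.8 CPM in 10-day and 93.0 and 161 CPM in 5-day PD-1- cells. At 10 days the lower PD-1+ library was close to the higher PD-1- library, at 5 days the groups were far apart, and the log2 fold change over both ages was 0.93 ± 0.23 (edgeR adjusted p = 0.0076).

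At the kinetochore, the protein plate that holds the chromosome to microtubules, 5 of 7 genes were higher in PD-1+ cells over both ages. The 4 genes of the NDC80 complex, its direct microtubule coupler, were all among them. Spc25 was at 68.7 and 71.0 CPM in 10-day and 130.2 and 137 CPM in 5-day PD-1+ cells, against 38.5 and 55.9 CPM in 10-day and 60.3 and 89.1 CPM in 5-day PD-1- cells. It separated the populations at each age, with a log2 fold change of 0.72 ± 0.18 (edgeR adjusted p = 0.0044). Spc24, Ndc80 and Nuf2 had log2 fold changes of 0.76 ± 0.23, 0.58 ± 0.18 and 1.13 ± 0.29. Cenpe, a motor that brings chromosomes to the spindle equator, ranged over 115 to 206 CPM in the PD-1+ and 49.9 to 124 CPM in the PD-1- libraries, with a log2 fold change of 0.85 ± 0.22 (edgeR adjusted p = 0.0080). The others did not pass the test. Cenpa, the histone H3 variant that marks centromeres (chr5:30666777-30674830), was at 202 and 252 CPM in 10-day and 313 and 391 CPM in 5-day PD-1+ cells, against 154 and 275 CPM in 10-day and 258 and 386 CPM in 5-day PD-1- cells. Its groups overlapped at both ages and its log2 fold change was 0.11 ± 0.19 (edgeR adjusted p = 0.67), negative without replicate 1 of the 10-day PD-1- libraries at -0.03. Cenpf, a large protein of the outer kinetochore, had a log2 fold change of 0.19 ± 0.31 and a wide spread, over 59.5 to 135 CPM in the PD-1+ and 39.2 to 141 CPM in the PD-1- libraries, and it was -0.04 without the same library.

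All 4 genes of the spindle checkpoint, which delays anaphase until every kinetochore is attached, were higher in PD-1+ cells over both ages. Mad2l1 encodes MAD2, the protein that captures the activator of the anaphase-promoting complex (chr6:66535390-66547220), and was at 105 and 111 CPM in 10-day and 169.8 and 176 CPM in 5-day PD-1+ cells, against 35.0 and 55.9 CPM in 10-day and 54.8 and 89.1 CPM in 5-day PD-1- cells. All PD-1+ libraries lay above all PD-1- libraries, and the log2 fold change was 1.28 ± 0.18 over both ages and 1.28 ± 0.25 at 10 days, the highest of the 41 at that age (edgeR adjusted p = 6.6e-05 and 0.0012). Ttk, the kinase MPS1 that starts the checkpoint signal, was the least abundant of the set at 35.3 to 47.9 CPM in the PD-1+ and 15.2 to 23.3 CPM in the PD-1- libraries, without overlap and with a log2 fold change of 1.21 ± 0.21 (edgeR adjusted p = 3.6e-04). The checkpoint kinase Bub1 was at 50.6 and 74.1 CPM in 10-day and 125 and 152 CPM in 5-day PD-1+ cells, against 39.2 and 60.5 CPM in 10-day and 48.0 and 83.5 CPM in 5-day PD-1- cells. Bub1b, which encodes BUBR1 of the inhibitory complex (chr2:118598211-118641591), was at 91.5 and 118 CPM in 10-day and 176 and 228 CPM in 5-day PD-1+ cells, against 82.6 and 98.2 CPM in 10-day and 80.0 and 111 CPM in 5-day PD-1- cells. Both overlapped between populations at 10 days and not at 5 days. Over both ages the log2 fold change was 0.73 ± 0.24 for Bub1 and 0.66 ± 0.20 for Bub1b (edgeR adjusted p = 0.025 and 0.016). Both calls depended on single libraries, the edgeR adjusted p of Bub1b being 0.058 without replicate 2 of the 5-day PD-1- and 0.057 without replicate 3 of the 5-day PD-1+ libraries.

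Of the 5 kinesin and spindle genes, 4 were higher in PD-1+ cells over both ages. Kif2c, a kinesin that takes microtubules apart at the centromere, had the highest log2 fold change of the set, 1.38 ± 0.22, over 38.1 to 90.7 CPM in the PD-1+ and 17.2 to 36.9 CPM in the PD-1- libraries (edgeR adjusted p = 1.4e-04). Kif4, a chromosome-bound kinesin, followed with 1.03 ± 0.27 (edgeR adjusted p = 0.0073). Nusap1, which bundles spindle microtubules, was at 149.6 and 194 CPM in 10-day and 289 and 327 CPM in 5-day PD-1+ cells, against 105 and 139 CPM in 10-day and 140.0 and 237 CPM in 5-day PD-1- cells. It separated the populations at each age with a smaller log2 fold change, 0.61 ± 0.17 (edgeR adjusted p = 0.011). Hmmr, a spindle pole protein also known as a hyaluronan receptor, was at 32.4 and 52.0 CPM in 10-day and 87.0 and 101 CPM in 5-day PD-1+ cells, against 26.9 and 39.7 CPM in 10-day and 42.1 and 56.8 CPM in 5-day PD-1- cells. It overlapped at 10 days, with a log2 fold change over both ages of 0.66 ± 0.22 (edgeR adjusted p = 0.025). Kif11, the kinesin that pushes the spindle poles apart, was at 165 and 198 CPM in 10-day and 323 and 380.5 CPM in 5-day PD-1+ cells, against 102 and 173 CPM in 10-day and 133 and 270.3 CPM in 5-day PD-1- cells. It overlapped at 10 days and missed the threshold over both ages, with a log2 fold change of 0.61 ± 0.24 (edgeR adjusted p = 0.059).

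Of the 6 cytokinesis genes, 4 were higher in PD-1+ cells over both ages. Racgap1, a subunit of the centralspindlin complex that places the cleavage furrow (chr15:99620496-99651656), was at 266 and 304 CPM in 10-day and 410.2 and 519 CPM in 5-day PD-1+ cells, against 139 and 202 CPM in 10-day and 177 and 263 CPM in 5-day PD-1- cells. Its 4 PD-1+ libraries lay above its 4 PD-1- libraries, narrowly between ages, with a log2 fold change of 0.92 ± 0.17 (edgeR adjusted p = 5.8e-04). Kif23, the kinesin with which it forms centralspindlin, was at 90.5 and 135 CPM in 10-day and 179 and 191 CPM in 5-day PD-1+ cells, against 123 and 129 CPM in 10-day and 99.2 and 148 CPM in 5-day PD-1- cells. Its PD-1+ libraries enclosed its PD-1- libraries at 10 days, and the log2 fold change over both ages was 0.21 ± 0.19 (edgeR adjusted p = 0.40). The difference between these partners was not tested. Ect2, which centralspindlin recruits to activate RhoA, had a log2 fold change of 0.73 ± 0.23, Prc1, which bundles the midzone, 0.71 ± 0.19, and Kif20a, a midzone kinesin, 0.90 ± 0.31 (edgeR adjusted p = 0.023, 0.0077 and 0.043). Anln, the furrow scaffold anillin, was low at 15.0 to 48.2 CPM in the PD-1+ and 24.6 to 50.5 CPM in the PD-1- libraries, with a log2 fold change of 0.03 ± 0.28 (edgeR adjusted p = 0.94). It was -0.05 with upper-quartile scaling, -0.19 without replicate 2 of the 10-day PD-1+, -0.13 without replicate 2 of the 5-day PD-1- and -0.02 without replicate 1 of the 10-day PD-1- libraries.

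Among the genes of chromosome structure, 4 were higher, 1 was lower and 1 did not pass the test over both ages. Mki67, the Ki-67 protein that coats mitotic chromosomes and is the usual marker of cycling cells, was at 238 and 325 CPM in 10-day and 539 and 558 CPM in 5-day PD-1+ cells, against 158 and 268 CPM in 10-day and 229.7 and 391 CPM in 5-day PD-1- cells. It overlapped at 10 days, and its log2 fold change of 0.62 ± 0.21 (edgeR adjusted p = 0.032) was below the median of the 41. Top2a, topoisomerase II alpha, which untangles sister DNA (chr11:98992943-99024189), was the most abundant of the 41 by mean CPM, at 630.4 and 693 CPM in 10-day and 1437 and 1509.6 CPM in 5-day PD-1+ cells, against 495 and 687 CPM in 10-day and 619 and 1173 CPM in 5-day PD-1- cells. It overlapped at 10 days, and its log2 fold change of 0.44 ± 0.20 over both ages missed the threshold (edgeR adjusted p = 0.095).

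The 4 subunits of condensin, the ring that compacts chromosomes, split. Ncapg, a subunit of condensin I, was at 156 and 189 CPM in 10-day and 290.3 and 291 CPM in 5-day PD-1+ cells, against 60.2 and 95.6 CPM in 10-day and 89.8 and 165 CPM in 5-day PD-1- cells. Ncapd2, another condensin I subunit, was at 214 and 234 CPM in 10-day and 269.7 and 337 CPM in 5-day PD-1+ cells, against 126 and 159 CPM in 10-day and 144 and 229 CPM in 5-day PD-1- cells. Smc2, an ATPase of the condensin core, was at 169 and 196 CPM in 10-day and 299 and 326 CPM in 5-day PD-1+ cells, against 98.8 and 101 CPM in 10-day and 113 and 183 CPM in 5-day PD-1- cells. These 3 separated the populations at each age, with log2 fold changes of 1.19 ± 0.19, 0.68 ± 0.16 and 0.98 ± 0.15 (edgeR adjusted p = 2.6e-04, 0.0031 and 1.5e-04). Smc4, the other ATPase and the direct partner of Smc2 in the core (chr3:69004738-69034623), was at 424 and 417 CPM in 10-day and 533 and 567 CPM in 5-day PD-1+ cells, against 1114 and 1193 CPM in 10-day and 898 and 1169 CPM in 5-day PD-1- cells. Every PD-1+ library lay below every PD-1- library, and the log2 fold change was -1.18 ± 0.15 over both ages, -1.45 ± 0.15 at 10 days and -0.91 ± 0.14 at 5 days (edgeR adjusted p = 1.5e-05, 1.0e-06 and 1.3e-04). These 3 Smc4 calls were kept in every fit that left out 1 library and under every other setting tried. Per kilobase of exon, Smc4 averaged 93.2 CPM in the PD-1+ and 209.8 CPM in the PD-1- libraries, and Smc2 had the opposite order between populations.

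In the set that ends mitosis, 1 of 4 genes passed the test over both ages. Ube2c, the ubiquitin-conjugating enzyme of the anaphase-promoting complex, was at 148 and 192 CPM in 10-day and 416 and 460.2 CPM in 5-day PD-1+ cells, against 64.1 and 127 CPM in 10-day and 121 and 251 CPM in 5-day PD-1- cells. It separated the populations at each age, with a log2 fold change of 1.05 ± 0.27 (edgeR adjusted p = 0.012). Cdc20, the activator of the complex that the checkpoint holds, ranged over 85.1 to 277 CPM in the PD-1+ and 53.4 to 182 CPM in the PD-1- libraries with a log2 fold change of 0.69 ± 0.29 (edgeR adjusted p = 0.085). Espl1, separase, the protease that cuts cohesin, ranged over 18.9 to 56.8 CPM in the PD-1+ and 23.3 to 38.6 CPM in the PD-1- libraries, and Pttg1, securin, the inhibitor of separase, over 44.9 to 61.1 CPM in the PD-1+ and 39.5 to 40.9 CPM in the PD-1- libraries. Their log2 fold changes were 0.36 ± 0.28 and 0.37 ± 0.18 (edgeR adjusted p = 0.32 and 0.11). The Pttg1 values spanned the narrowest range of the 41 relative to their level.

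**Figure D3:**
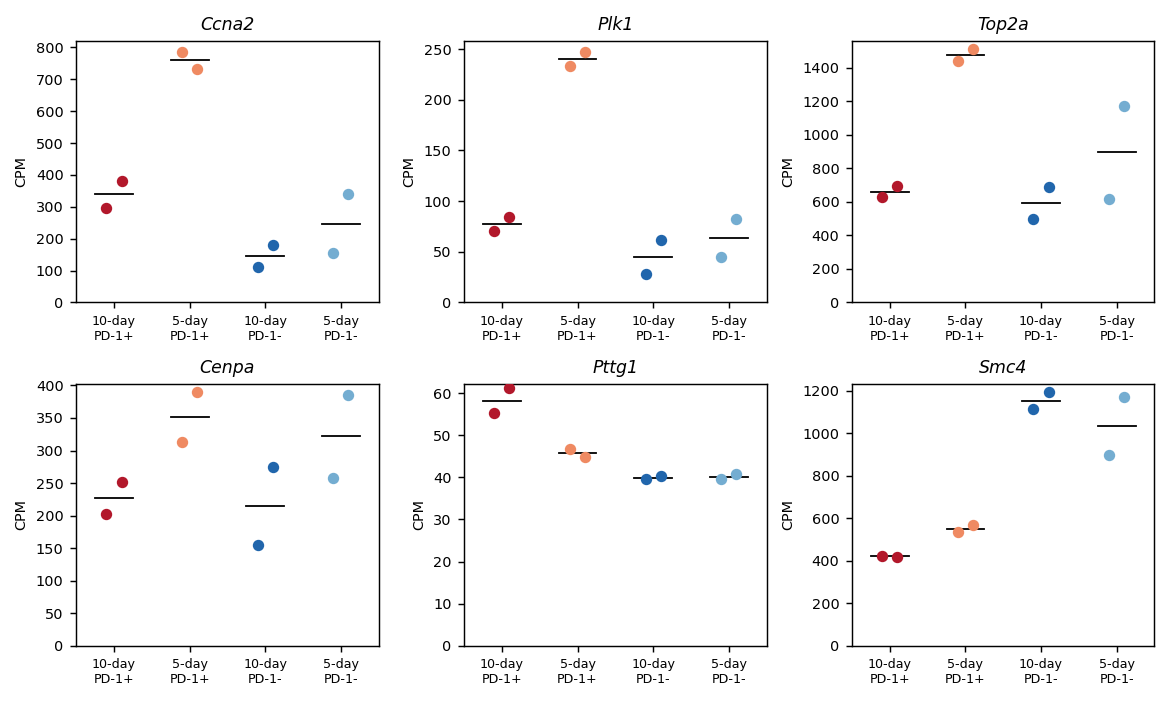
CPM of 6 mitosis genes in each library, with 1 point per library and a line at the mean of the 2 libraries of a group. Ccna2 and Plk1 peak in 5-day PD-1+ cells, Top2a overlaps between populations at 10 days, Cenpa overlaps at both ages, Pttg1 stays between 39.5 and 61.1 CPM, and Smc4 lies lower in every PD-1+ library (417 to 567 CPM) than in any PD-1- library (898 to 1193 CPM).

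Levels between genes can be compared only per length, and here only roughly. The length used was that of the merged exons of all annotated transcripts of a gene, such as 1531 bases for Ccnb2 and 8390 for Mad2l1. It can exceed the length of any 1 transcript, so the order of genes depends partly on the annotation. Per kilobase of annotated exon, the mean over the 8 libraries was highest for Smc4 at 151 CPM, followed by Ccnb2 at 146, Top2a at 100.5, Ccna2 at 91.3 and Ube2c at 85.6 CPM per kilobase. The lowest were Anln at 4.01 and Espl1 at 4.12 CPM per kilobase. In PD-1+ cells alone Ccnb2 (189) and Ccna2 (135) stood above Top2a (118) and Smc4 (93.2), whereas in PD-1- cells Smc4 (209.8) stood above Ccnb2 (103), Top2a (82.5) and Ccna2 (48.1 CPM per kilobase). Exons of 9 of the 41 genes overlap exons on the opposite strand, such as Ccna2 with Exosc9, Kif20a with Cdc23 and Cdc20 with Elovl1. The sources used here do not name the strand setting of the counting, and reads of these pairs may be shared.

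Tested at each age, 11 mitosis genes were higher in PD-1+ cells and 1 was lower at 10 days, and 24 were higher and 1 was lower at 5 days (edgeR on the 4 groups). Among all tested genes 16.4% were called higher and 12.9% lower at 10 days, and 17.6% higher and 16.7% lower at 5 days. At 10 days the share of the 41 called higher was thus closer to that of all genes. The median log2 fold change was 0.62 at 10 days and 0.99 at 5 days over the 41 genes, against 0.01 and -0.03 over all tested genes. Estimates were at least 2-fold higher for 11 of the 41 genes at 10 days and 20 at 5 days. Among all 11490 tested genes they were so for 1760 at 10 days and 1669 at 5 days. Higher at both ages were Aurka, Tpx2, Aurkb, Mad2l1, Ttk, Kif2c, Racgap1, Ncapg, Ncapd2 and Smc2, and Smc4 was lower at both. A further 14 were called higher at 5 days and not at 10 days, among them Ccna2, Ccnb1, Cdk1, Plk1, Birc5, Bub1 and Bub1b, and Prc1 was called at 10 days and not at 5 days. Whether the effect differed between ages was tested separately, as the interaction.

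These counts depended on single libraries and on the fit. At 10 days 25 genes were called with no filter on low counts and 24 with a replicate block. At 10 days the 12 calls became fewer without replicate 1 of the PD-1- or replicate 2 of the PD-1+ libraries. Calls among all tested genes fell there too. The median log2 fold change of the mitosis genes was then 0.32 and 0.49, against 0.62 in the main fit. Without replicate 2 of the PD-1- libraries these genes gained calls, with a median of 1.02, while all tested genes lost calls. They also gained calls without either 5-day PD-1- library, with medians of 0.63 and 0.61. There the share of all tested genes called changed little. Each of these fits left 1 library in a group. Only Mad2l1, Smc2 and Smc4 kept their 10-day calls in all 8 fits. At 5 days the 25 calls fell most without replicate 3 of the PD-1+ or replicate 2 of the PD-1- libraries. Calls among all tested genes fell there too, and the medians of the mitosis genes were 0.90 and 0.62, against 0.99. The 12 calls kept in all 8 fits were those of Plk1, Aurka, Aurkb, Birc5, Bub1b, Mad2l1, Ttk, Kif2c, Racgap1, Ncapg, Smc2 and Smc4. Without both 5-day libraries that held Y-linked counts, an alternative added after the data were seen, 28 genes were called over both ages, 16 at 10 days and 31 at 5 days.

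**Figure D4:**
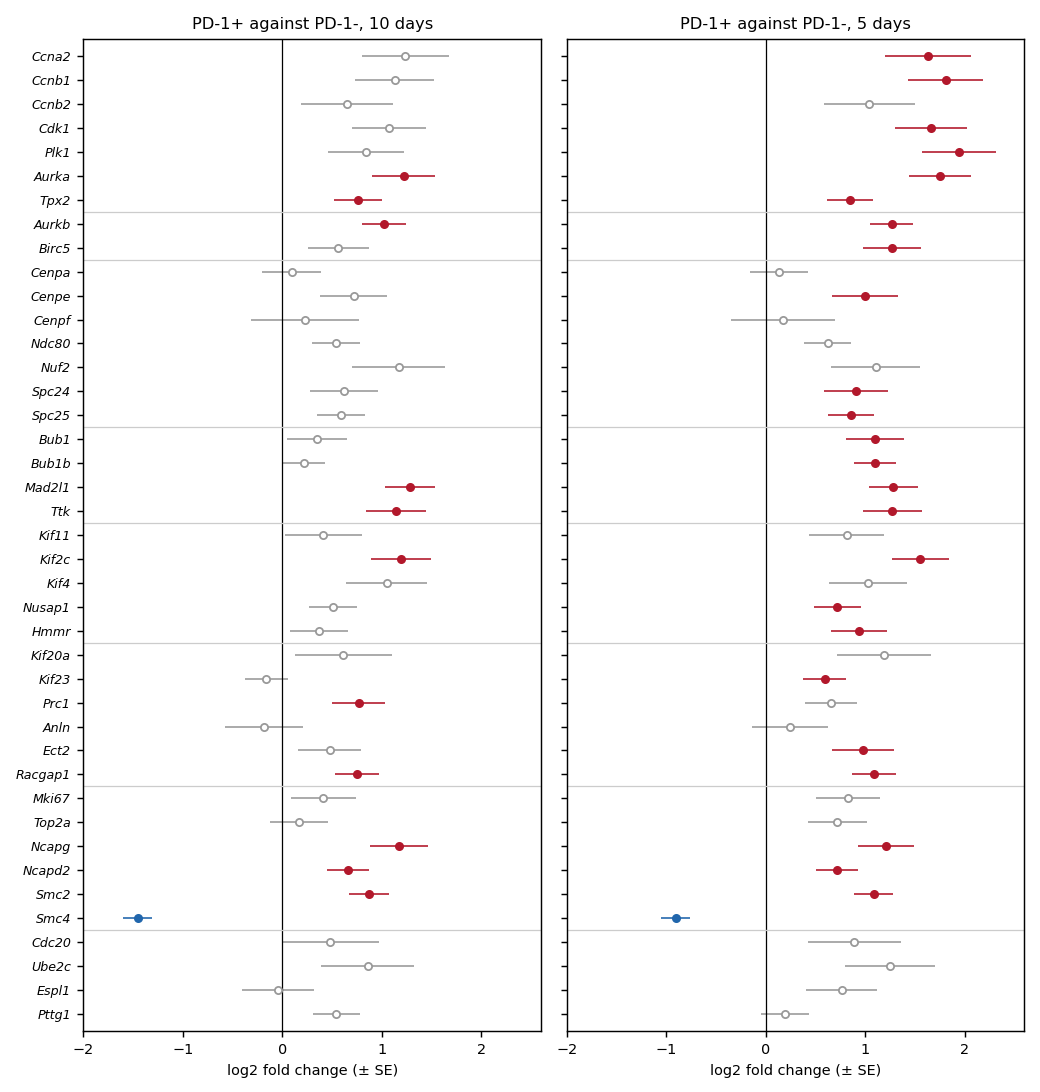
Log2 fold change of PD-1+ over PD-1- cells with its standard error for each of the 41 mitosis genes at 10 days and at 5 days, in order of role with lines between the sets. Filled points are called higher (red) or lower (blue) at an edgeR adjusted p below 0.05, open points are not called, and most genes lie further left at 10 days (median 0.62) than at 5 days (median 0.99).

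In PD-1+ cells, 15 mitosis genes were lower at 10 than at 5 days, none was higher and 26 did not pass the test. Among all tested genes 7.39% were called higher and 6.98% lower. At an unadjusted p below 0.05, 31 of the 41 were lower and 0 higher. Of the 11490 tested genes, 3249 had such a p in either direction, a smaller share. DESeq2 called 21 of the 41, all of them lower, and 606 higher and 696 lower among the 11490 tested genes. The median log2 fold change of 10 over 5 days was -0.88 over the 41 genes and 0.05 over all tested genes, and 40 of the 41 estimates were negative. Aurkb, at 112 and 113 CPM at 10 days against 223 and 222 CPM at 5 days, had the smallest p, with a log2 fold change of -0.98 ± 0.21 (edgeR adjusted p = 0.0055). Bub1b was lower by a similar size, -0.95 ± 0.21, as was Hmmr, -1.15 ± 0.28 (edgeR adjusted p = 0.0060 and 0.010). Birc5 and Plk1 had the widest differences of the called genes, -1.61 ± 0.29 and -1.64 ± 0.36 (edgeR adjusted p = 0.0062 and 0.019). Both 5-day libraries lay above both 10-day libraries for each of these 5 genes.

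The other called genes were Ccnb1, Tpx2, Spc25, Bub1, Kif2c, Nusap1, Kif23, Racgap1, Top2a and Smc2, with log2 fold changes between -1.49 (Ccnb1) and -0.71 (Racgap1). Every set but the last was represented, the 4 genes that end mitosis having no call. Pttg1 was the 1 gene with a positive estimate, 0.34 ± 0.23, at 55.2 and 61.1 CPM at 10 days against 46.8 and 44.9 CPM at 5 days (edgeR adjusted p = 0.37). Smc4 had -0.39 ± 0.14 (edgeR adjusted p = 0.083). The count was 29 with no filter on low counts. The count also depended on single libraries. Calls fell without either 5-day PD-1+ library or replicate 1 of the 10-day PD-1+ libraries, among all tested genes too. The median log2 fold change of the mitosis genes was then -0.95 (without 5-day replicate 2), -0.89 (5-day replicate 3) and -0.71 (10-day replicate 1). It was -0.88 in the main fit. Without either 5-day PD-1- library more mitosis genes were called, and slightly more of all tested genes. Each of these fits left 1 library in a group. Aurkb was the 1 call kept in all 8 fits. Without both libraries with Y-linked counts, 13 genes were called.

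In PD-1- cells, none of the 41 mitosis genes was called between 10 and 5 days, where 0.148% of all tested genes were called higher and 0.122% lower. At an unadjusted p below 0.05, 9 of the 41 were lower and 0 higher. Of the 11490 tested genes, 1219 had such a p in either direction. DESeq2 called 0 of the 41. The median log2 fold change of 10 over 5 days was -0.56, and 38 of the 41 estimates were negative. The genes with the smallest p were Aurkb, -0.74 ± 0.23, Tpx2, -0.79 ± 0.24, Spc25, -0.67 ± 0.24, and Smc2, -0.56 ± 0.20 (edgeR adjusted p = 0.22, 0.23, 0.31 and 0.31). Both 5-day libraries lay above both 10-day libraries for these 4, but the 5-day libraries themselves lay apart, Smc2 standing at 98.8 and 101 CPM at 10 days and 113 and 183 CPM at 5 days. Without replicate 2 of the 5-day PD-1- libraries 5 genes were called, all lower.

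The interaction asks whether PD-1+ and PD-1- cells differed in their change with age. None of the 41 mitosis genes passed this test (edgeR), where 1.2% of all tested genes were called with a positive and 0.923% with a negative interaction. At an unadjusted p below 0.05, 3 of the 41 were negative and 0 positive. Of the 11490 tested genes, 1728 had such a p in either direction, a larger share. DESeq2 called 0 of the 41, and 1 was called with no filter on low counts and 1 with a replicate block. The median interaction was -0.39 on the log2 scale over the 41 genes and 0.04 over all tested genes, with 35 of 41 estimates negative. It moved to 0.0053 without replicate 2 of the 5-day and 0.00060 without replicate 2 of the 10-day PD-1- libraries. The smallest p belonged to Bub1b, with -0.87 ± 0.30, then Smc4, -0.55 ± 0.20, Kif23, -0.75 ± 0.30, Plk1, -1.10 ± 0.53, Bub1, -0.75 ± 0.42, and Birc5, -0.71 ± 0.42 (edgeR adjusted p between 0.15 and 0.48). The age comparisons therefore gave calls in PD-1+ cells and none in PD-1- cells without a difference between them that passed the test.

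**Figure D5:**
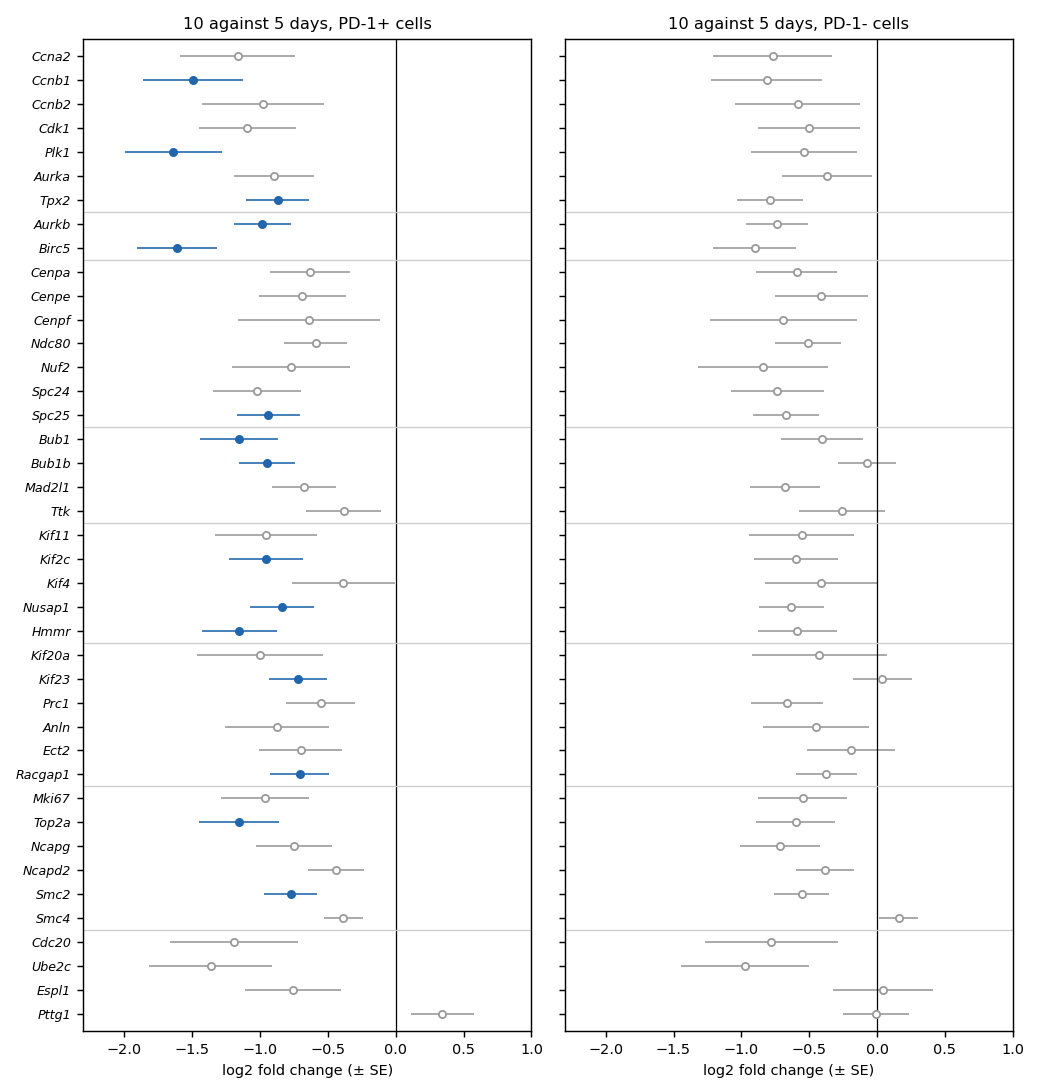
Log2 fold change of 10 over 5 days with its standard error for each of the 41 mitosis genes in PD-1+ and in PD-1- cells, in order of role. Filled blue points are called lower at an edgeR adjusted p below 0.05 (15 in PD-1+ and 0 in PD-1- cells), open points are not called, and the medians are -0.88 in PD-1+ and -0.56 in PD-1- cells.

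Other cell cycle genes were read in the same fits from lists that do not hold the 41 genes; over both ages 21.9% of all tested genes were called higher and 19.6% lower. Of 49 further mitosis genes tested, PD-1+ cells had 32 higher and 0 lower over both ages, with a median log2 fold change of 0.80. Cdca8, borealin of the passenger complex, Cep55, which acts at abscission, and Ncaph, the condensin I subunit that closes the ring, had the smallest p, with 1.01 ± 0.16, 1.23 ± 0.21 and 1.17 ± 0.20 (edgeR adjusted p = 1.5e-04, 2.7e-04 and 3.6e-04). Of the 33 replication genes 32 were higher and 0 lower, with a median of 1.64. Their leading genes were Mcm6 and Mcm5 of the replicative helicase and Tk1, thymidine kinase, with 2.10 ± 0.13, 2.13 ± 0.14 and 2.26 ± 0.19 (edgeR adjusted p = 1.4e-08, 2.6e-08 and 3.2e-07). Between 10 and 5 days in PD-1+ cells 6 of the 49 mitosis genes and 11 of the 33 replication genes were lower and 0 of either were higher, where 6.98% of all tested genes were lower.

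Regulators of the cycle were more mixed. Of 14 G1 cyclins, kinases and E2F genes, 6 were higher and 0 lower over both ages, led by E2f3, 2.27 ± 0.26, Cdk4, 0.96 ± 0.13, and E2f7, 1.55 ± 0.31. Of 12 DREAM and MuvB genes, 4 were higher and 0 lower. Mybl2, the B-Myb factor that joins MuvB to switch on late genes, was at 12.8 and 16.5 CPM in 10-day and 30.9 and 13.4 CPM in 5-day PD-1+ cells, against 2.59 and 0.00 CPM in 10-day and 5.51 and 2.84 CPM in 5-day PD-1- cells. It had a log2 fold change of 2.66 ± 0.49, Tfdp1, the partner of E2F factors, 1.28 ± 0.20, and E2f4, the E2F of the repressive complex, 1.04 ± 0.20 (edgeR adjusted p = 5.7e-04, 1.5e-04 and 8.7e-04). Of 8 CDK inhibitors and anti-proliferative genes, 2 were higher and 4 lower. Cdkn1a, which encodes the inhibitor p21, was at 141 and 103 CPM in 10-day and 200.2 and 113 CPM in 5-day PD-1+ cells, against 2.91 and 5.85 CPM in 10-day and 3.56 and 6.25 CPM in 5-day PD-1- cells. Cdkn1b, the inhibitor p27 of resting T cells, was at 79.8 and 94.9 CPM in 10-day and 82.3 and 75.0 CPM in 5-day PD-1+ cells, against 209 and 211 CPM in 10-day and 213 and 214 CPM in 5-day PD-1- cells. Every PD-1+ library lay above every PD-1- library for Cdkn1a and below it for Cdkn1b, with log2 fold changes of 4.99 ± 0.29 and -1.35 ± 0.13 (edgeR adjusted p = 9.6e-09 and 1.3e-06). Btg1, an anti-proliferative gene of resting lymphocytes, had -1.59 ± 0.21 (edgeR adjusted p = 4.8e-05).

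The remaining lists concern partners of the 41 genes. Of 17 genes of the anaphase-promoting complex and its regulators, 3 were higher and 0 lower, a share not above the 21.9% higher among all tested genes, namely Anapc4, 0.54 ± 0.15, Fbxo5, 0.71 ± 0.23, and Anapc10, 0.80 ± 0.28. Cohesin, the ring that holds sister chromatids together and the substrate of separase, had 1 higher and 5 lower of 11 genes, led by its loader Nipbl, -1.16 ± 0.15, its release factor Wapl, -0.57 ± 0.14, and the subunit Stag2, -0.51 ± 0.13 (edgeR adjusted p = 1.8e-05, 0.0040 and 0.0054). Of 12 tubulin genes, 7 were higher and 2 lower. Tubb2a, a beta tubulin, was lower with -3.16 ± 0.16, and Tubb6 and Tuba1c were higher with 3.49 ± 0.43 and 1.53 ± 0.21 (edgeR adjusted p = 2.3e-09, 1.4e-05 and 7.6e-05). In PD-1+ cells 7 of the 12 tubulin genes were lower at 10 than at 5 days.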

How the data were processed

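Poly(A) RNA of 8 libraries was primed with oligo(dT), amplified, tagmented and sequenced as short read pairs, per the labels' protocols. Per the submitters' processing notes, STAR 2.5.4, featureCounts and the build mm10 (GRCm38) were used. The annotation, the strand setting and the rule for multi-mapping reads are, in the sources used here, not given. The authors deposited raw counts per gene symbol in 1 table, and its 8 columns were assigned by their titles (0 columns of other samples, 0 rows without a gene). Depth was 1473216 to 3019551 counts, and intervals of counting error do not cover amplification.

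Genes were kept by filterByExpr (11490 of 52997), scaled by TMM, and tested with robust quasi-likelihood fits in edgeR 4.0.16 (limma 3.58.1, R 4.3.3), with Benjamini-Hochberg adjustment over all tested genes and a threshold of 0.05. The comparison over both ages came from a model with terms for age and for PD-1, and the other 5 comparisons from a model of the 4 groups. Standard errors were computed from the log2 fold change and the square root of its F. Alternatives were DESeq2 1.42.0, other scalings, no filter, a replicate block, and leaving out each library. The procedure was tested on simulated data. Replicates of a group differed by more than counting error (chi-square over degrees of freedom 4.08 to 9.19). The 41 genes, their sets and the other lists were chosen with earlier results of these data known. Some marker genes of other cell types are not reported here. Named in full are the 14 genes of highest mean CPM, those of smallest p in the interaction (6) and in each age comparison (4), and those of extreme log2 fold change; from each other list, the 3 genes of smallest p. Gene coordinates and exon lengths are from GENCODE M21 (GRCm38) and promoters from RefSeq (GRCm38.p6).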

Additional observations from a re-analysis of the deposited data

Results flagged for a closer look

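Of the 156 tested genes of the other cell cycle lists, 4 (2.56%) differed between PD-1+ and PD-1- cells in their change with age by the edgeR interaction test, close to the 2.12% of all tested genes. Cdk6, a kinase of G1 phase, was at 328 and 218 CPM at 10 days and 170.4 and 163 CPM at 5 days in PD-1+ cells, and 54.1 and 67.0 CPM at 10 days and 147 and 97.1 CPM at 5 days in PD-1- cells, an interaction of 1.75 ± 0.33 on the log2 scale (edgeR adjusted p = 0.014). Tuba1b, an alpha tubulin, was at 157 and 189 CPM at 10 days and 504 and 465 CPM at 5 days in PD-1+ cells, and 114 and 165 CPM at 10 days and 148 and 169 CPM at 5 days in PD-1- cells, an interaction of -1.29 ± 0.25 (edgeR adjusted p = 0.014). Ccne1, cyclin E1, was at 73.7 and 72.4 CPM at 10 days and 139 and 99.8 CPM at 5 days in PD-1+ cells, and 72.9 and 78.1 CPM at 10 days and 46.0 and 58.5 CPM at 5 days in PD-1- cells, an interaction of -1.24 ± 0.31 (edgeR adjusted p = 0.048). Anapc5, a scaffold subunit of the anaphase-promoting complex, was at 288 and 290.3 CPM at 10 days and 547 and 561 CPM at 5 days in PD-1+ cells, and 382 and 352 CPM at 10 days and 405 and 381 CPM at 5 days in PD-1- cells, an interaction of -0.84 ± 0.19 (edgeR adjusted p = 0.034). Cdk6 was higher at 10 than at 5 days in PD-1+ cells, and the other 3 were lower there. Groups of 2 libraries are too small for a test of single outlying samples.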

How the results depend on the processing

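The 32 calls over both ages stayed between 24 and 35 under all alternatives, and the 98 calls in the other lists between 81 and 100. With no filter on low counts, 25 mitosis genes were called at 10 days, 29 between ages in PD-1+ cells, 5 between ages in PD-1- cells and 1 in the interaction. The labels do not say whether same-numbered libraries share mice, and the main fits did not pair them. Over all tested genes such libraries deviated together only weakly (r = 0.114 at 10 days and 0.094 at 5 days). For the mitosis genes only directions were counted, a measure that cannot be set against r, and these genes shared their spread. Replicate 2 was higher for 40 of 41 in both 10-day groups, and replicate 3 for 32 and 41 of 41 in the 5-day groups. Both 5-day libraries numbered 3 also held Y-linked counts. Compared by number, 35 of the 41 genes were higher in PD-1+ cells in all 4 pairs. The share of all tested genes with such a direction was not computed. A replicate block gave 34 calls over both ages, 24 at 10 days, 36 at 5 days and 1 in the interaction, and none could be fitted between ages. Among all 11490 tested genes the block called 2339 higher and 2060 lower over both ages. In the same order the others were 1983 and 1580, 2194 and 1964, and 263 and 220. Leaving out 1 library gave 3 to 20 calls at 10 days, 13 to 35 at 5 days, 1 to 23 between ages in PD-1+ cells, 0 to 5 in PD-1- cells and 0 to 1 in the interaction, the lone library of a group then being assumed to vary like the others. DESeq2 gave 34, 17, 31, 21, 0 and 0 calls in the order both ages, 10 days, 5 days, age in PD-1+, age in PD-1- and interaction. Among all 11490 tested genes it called 2471 higher and 2212 lower over both ages. In the same order the others were 1597 and 1230, 1824 and 1492, 606 and 696, 28 and 41, and 124 and 124. Among the values followed here, signs turned only for some that were not called. They were Anln over both ages (-0.052 with upper-quartile scaling, -0.0147 with the block) and Espl1 at 10 days (0.021 with no filter). Leaving out 1 library, Anln turned (-0.19 to 0.28 over both ages, -0.98 to 0.34 at 10 days, -0.070 to 0.61 at 5 days). In the same order so did Cenpa (-0.029 to 0.30, -0.27 to 0.56, -0.13 to 0.46) and Cenpf (-0.038 to 0.50, -0.36 to 1.06, -0.15 to 0.57). At 10 days Espl1 (-0.72 to 0.43), Kif23 (-0.47 to 0.10) and Top2a (-0.050 to 0.42) turned. Others were Smc4 between ages in PD-1- cells (-0.0203 to 0.37) and the median interaction (-0.79 to 0.0053). In the main fit 35 of the 41 interactions were negative. Some of these must have turned where their median did, and they are not listed here. The causes were not tested. Scalings moved the median of all tested genes by less than 0.1.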
